A study of Mus musculus with 12 samples.

Results

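The difference between 2 mouse strains in the fetal testis at E15.5, a stage given in embryonic days, is described here across genes. It rests on the 2 arrays titled E15.5 Mouse testis of M19 and the 2 of 129/Sv, which are 4 of the 12 arrays of the series, and on all 45037 probe sets that are not controls. M19 is the chromosome substitution strain 129.MOLF-Chr 19, in which chromosome 19 of the MOLF strain stands on a 129 background. The other strain is 129/Sv (129), and the remaining chromosomes are those of 129 in both. The samples are male genital ridges of E15.5 embryos, with 40 pairs of testes pooled for 2 arrays per the labels. Nothing in the labels shows that the 2 arrays of a strain hold RNA of separate pools, so the spread behind the p-values could be technical. Arrays of M19 and 129 at E13.5 and E17.5, 2 each, served to estimate the spread and to show whether a difference at E15.5 was also there at the other stages. Whole organs were measured, so fewer cells of a type and less RNA per cell cannot be told apart.

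In the mouse fetal testis, germ cells are enclosed in cords by Sertoli cells. They stop dividing, shut down the pluripotency genes that they share with embryonic stem cells, and build up new DNA methylation together with the piRNA machinery, which silences transposons. Germ cells that fail to leave the pluripotent state are the known origin of teratomas in 129 mice, and M19 males are known to develop such tumours often. Nodal, acting through its co-receptor Tdgf1 (Cripto), is known as a signal that keeps pluripotency genes active in fetal male germ cells.

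The levels below are log2 signals per probe set and the differences are M19 minus 129, with the standard error (SE) of a linear model of all 12 arrays. Probe sets count as called where limma's p, adjusted by Benjamini and Hochberg's method, was under 0.05, and a gene is given by its brightest probe set. At E15.5, 258 of 45037 probe sets were called, which is 0.573%. Of these, 54 were higher in M19 (0.12%) and 204 lower (0.453%). By gene, 124 of 18032 were called, or 0.688%, with 27 higher (0.15%) and 97 lower (0.538%). At the other stages 6 genes (0.0333%) were called at E13.5 and 17 (0.0943%) at E17.5. The median difference over all genes at E15.5 was 0.01. The arrays of the strains did not overlap in 36.7% of all genes, so absence of overlap alone says little.

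The tissue label was compared with marker genes. Of 14 Sertoli cell genes, 13 lay above the median of all probe sets in M19 and 13 in 129 at E15.5. No listed gene of any cell type stood at 0 on an E15.5 array. Of all probe sets only 11 to 16 did so per array, so this says little about the tissue. The 129 arrays of E15.5 stood apart in another way, by lists that were chosen with earlier results of these data known. The mean level of 23 epidermis genes was 8.06 and 8.05 on the M19 arrays and 9.41 and 9.45 on the 129 arrays of E15.5, while the 8 arrays of other stages lay between 7.98 and 8.35. For 30 skeletal muscle genes the mean level was 7.62 and 7.58 in M19 and 8.39 and 8.39 in 129, against 7.55 to 7.96 on the 8 other arrays. For 18 cartilage and bone genes it was 8.06 and 8.06 in M19 and 8.52 and 8.58 in 129, against 8.08 to 8.3 elsewhere. For 10 tendon genes it was 8.71 and 8.63 in M19 and 9.64 and 9.75 in 129, against 8.55 to 9.08 elsewhere. Both 129 arrays carry these levels, so no comparison at E15.5 can be made without them, and their part in the other differences was not tested. Pearson correlations over all probe sets, given as a description since probe sets are no replicates, were 0.994 between the M19 arrays, 0.987 between the 129 arrays and 0.985 to 0.989 between strains. The control probe set for 18S ribosomal RNA read 7.63 and 7.96 in M19 and 8.38 and 6.88 in 129.

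The promoters of 5 called genes are shown, because they are among the genes named here and hold known promoter motifs. Each is the stretch of 250 bases before the transcription start in RefSeq (build GRCm38.p6), written along the gene's strand. Capitals mark ATGCAAA, the core of the octamer to which Oct4 binds, in Nanog, Sox2 and Liph, which were higher in M19. In Nanog alone they also mark CATTGT, the Sox site. They mark TATAAA, the TATA box, in Krt10 and Myh3, which were lower. All motifs were searched on both strands.
Nanog, chr6:122707315-122707564, plus strand: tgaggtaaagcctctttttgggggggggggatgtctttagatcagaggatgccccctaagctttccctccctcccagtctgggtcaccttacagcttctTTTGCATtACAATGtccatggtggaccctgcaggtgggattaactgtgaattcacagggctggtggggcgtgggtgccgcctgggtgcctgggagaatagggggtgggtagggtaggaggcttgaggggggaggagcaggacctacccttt
Sox2, chr3:34649745-34649994, plus strand: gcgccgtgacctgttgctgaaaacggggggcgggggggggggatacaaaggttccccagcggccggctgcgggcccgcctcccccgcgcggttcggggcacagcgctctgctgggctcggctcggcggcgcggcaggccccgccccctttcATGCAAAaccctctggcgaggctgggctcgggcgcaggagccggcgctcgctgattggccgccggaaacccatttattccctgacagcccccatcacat
Liph, chr16:21995543-21995792, minus strand: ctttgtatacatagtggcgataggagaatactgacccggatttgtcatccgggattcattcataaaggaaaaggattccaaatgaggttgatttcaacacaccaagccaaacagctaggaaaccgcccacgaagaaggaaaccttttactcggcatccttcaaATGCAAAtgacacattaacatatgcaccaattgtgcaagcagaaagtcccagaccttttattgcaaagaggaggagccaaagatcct
Krt10, chr11:99389365-99389614, minus strand: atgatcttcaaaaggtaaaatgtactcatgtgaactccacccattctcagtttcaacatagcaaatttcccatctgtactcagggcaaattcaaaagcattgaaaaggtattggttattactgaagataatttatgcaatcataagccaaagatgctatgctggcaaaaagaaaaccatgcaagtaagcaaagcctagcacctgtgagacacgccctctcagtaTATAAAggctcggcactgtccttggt
Myh3, chr11:67078050-67078299, plus strand: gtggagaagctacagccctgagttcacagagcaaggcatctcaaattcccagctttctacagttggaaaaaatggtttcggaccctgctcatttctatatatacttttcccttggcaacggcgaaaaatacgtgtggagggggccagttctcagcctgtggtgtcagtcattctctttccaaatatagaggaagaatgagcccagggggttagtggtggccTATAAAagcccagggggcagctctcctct

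In the Nanog window, shown for the downstream of 2 listed starts, the octamer core and the Sox site stand next to each other on the reverse strand, separated by a single base. Among all 32851 promoter windows of this length, 4.1% hold ATGCAAA, 10.7% CATTGT and 12.4% TATAAA. Of the genes higher in M19 with a listed promoter, 4 of 24 hold ATGCAAA (Liph, Med16, Nanog and Sox2), 3 hold CATTGT and 3 hold TATAAA. Of the lower genes, 5 of 79 hold ATGCAAA, 5 hold CATTGT and 21 hold TATAAA, among them Krt10, Krtdap, Myh3, Myh8, Myl1, Acta1, Postn and Hoxd13. The E-box CAGCTG, which myogenic factors bind, is in 13% of all windows, in 13 of these 79 lower genes and in 3 of the 24 higher ones. A match is a description of the letters and not a binding site. No gene counts here were tested, and a gene with several starts has more windows.

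Some pluripotency genes were higher in M19. Of 22 measured, 6 were called higher and none lower by their brightest probe set, the median difference was 0.41, and 17 of 22 differences were positive. Over all genes 0.15% were called higher, the median was 0.01 and 9540 of 18032 differences were positive. The list was chosen with earlier results of these data known. The called genes were Tdgf1, Sox2, Dppa5a, Nanog, L1td1 and Dppa3. A second probe set of Klf4, a pluripotency factor also expressed in skin, was called lower (difference -0.95, adjusted p = 0.0036), and its brightest probe set was not (-0.75, adjusted p = 0.36).

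Dppa5a, which binds RNA in pluripotent and germ cells, read 12.17 and 11.93 in M19 and 10.43 and 10.44 in 129 at E15.5. Its difference was 1.61 ± 0.11 (adjusted p = 4.6e-05), or 3.06-fold. The strains lay close together at E13.5, with means of 12.83 in M19 and 12.69 in 129, and again at E17.5, with 8.74 in M19 and 8.47 in 129. Thus the M19 level at E15.5 was nearer to the E13.5 level than the 129 level was. Dppa5a was the 1 gene of all 18032 that was called in the higher direction when the E15.5 difference was set against the mean of the other stages (1.41 ± 0.14, adjusted p = 0.0013). In that test 46 genes were called (0.255%), so that 1 was higher (0.00555%) and 45 were lower (0.25%). By probe set, 91 were called (0.202%), of which 8 were higher (0.0178%) and 83 lower (0.184%).

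Sox2, the transcription factor that partners Oct4 in pluripotent cells, read 10.34 and 10.19 in M19 and 8.34 and 8.89 in 129. The strains did not overlap, and the difference was 1.65 ± 0.22 (adjusted p = 0.0059). At E13.5 the means were 10.62 in M19 and 10.53 in 129, and at E17.5 they were 6.82 in M19 and 5.66 in 129. Nanog, the homeodomain factor of the same network, read 8.33 and 8.26 in M19 and 6.62 and 7.19 in 129, a difference of 1.39 ± 0.23 (adjusted p = 0.022). The 129 arrays of Sox2 and of Nanog were further apart from each other than the M19 arrays. For both genes the E15.5 difference could not be told from the mean of the other stages (adjusted p = 0.40 for Sox2 and 0.77 for Nanog).

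Dppa3 (Stella), a maternal and germ cell factor that guards DNA methylation marks, was 12.35 and 12.19 in M19 and 11.31 and 11.58 in 129, a difference of 0.82 ± 0.12 (adjusted p = 0.014). Its means at E13.5 were 12.30 in M19 and 12.36 in 129, so the M19 level at E15.5 was near that of E13.5. L1td1, which binds RNA in embryonic stem cells, was 6.97 and 6.91 in M19 and 5.87 and 6.05 in 129 (0.98 ± 0.14, adjusted p = 0.0099). It was also called at E17.5, where the difference was 0.99 (adjusted p = 0.03). The strains were separate for each of these genes at E15.5.

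The 16 other pluripotency genes were not called. Lin28a, which blocks the maturation of let-7 microRNAs, had 10.11 and 10.26 in M19 and 8.69 and 9.11 in 129, a difference of 1.28 ± 0.33 with an adjusted p of 0.22. Pou5f1 (Oct4) had 11.42 and 11.38 in M19 and 10.68 and 10.75 in 129 (0.68 ± 0.16, adjusted p = 0.13). Zfp42, Tfcp2l1 and Tcl1 had differences of 0.64, 0.62 and 0.49. Dppa4 had 12.54 and 12.42 in M19 and 12.47 and 12.52 in 129, a difference of -0.01 ± 0.11, and Sall4, Dppa2 and Prdm14 had differences of 0.13, 0.09 and 0.08. The list therefore did not shift as a block.

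**Figure D1:**
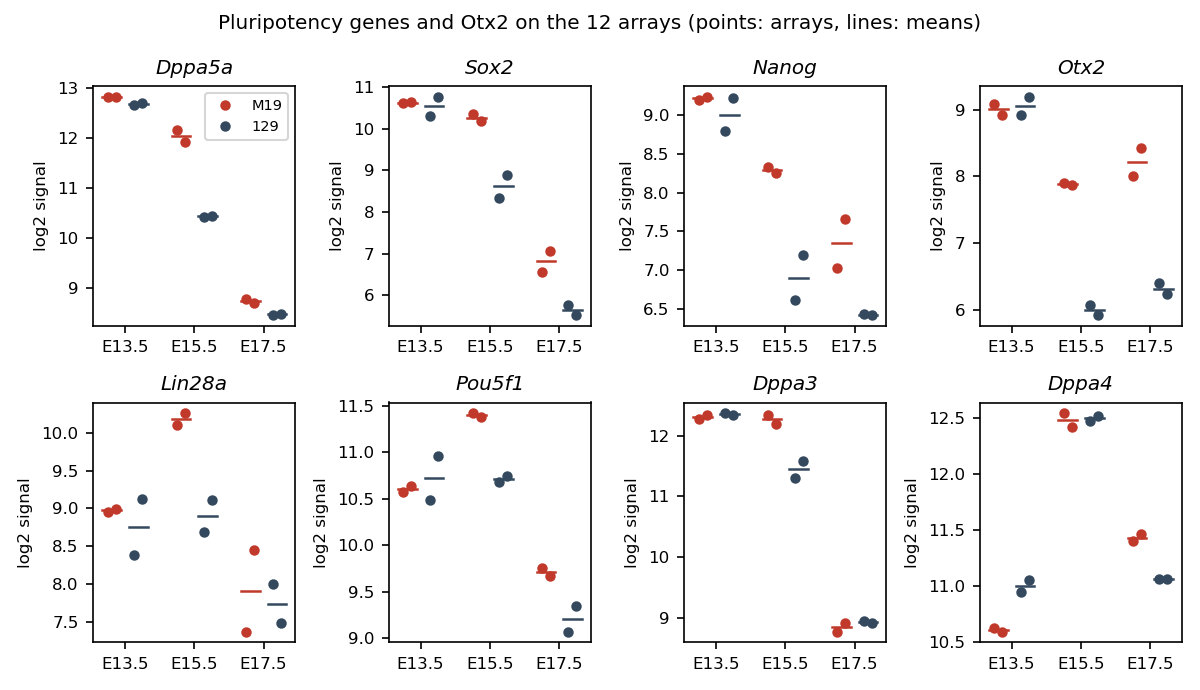
Log2 signal (vertical axis) of 7 pluripotency genes and Otx2 on all 12 arrays, by embryonic stage (horizontal axis), with M19 left of 129 at each stage. Points are arrays and lines are group means. At E15.5 both M19 arrays of Dppa5a, Sox2, Nanog, Otx2 and Dppa3 lie above both 129 arrays, and the Dppa4 arrays of the strains overlap.

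Of 14 genes of Nodal signalling, 2 were called higher and none lower, with a median difference of 0.08. Over all genes 0.15% were called higher. The 2 were Otx2 and Tdgf1, and Tdgf1 is also counted in the pluripotency list. Otx2, a homeodomain factor of the primed pluripotent state, read 7.90 and 7.87 in M19 and 6.07 and 5.92 in 129, which is 3.70-fold (1.89 ± 0.16, adjusted p = 0.00019). It did not differ at E13.5 beyond its error (-0.05 ± 0.16) and was called again at E17.5 (1.89, adjusted p = 0.0006). Tdgf1, the Nodal co-receptor, was dim, at 6.01 and 5.89 in M19 and 3.75 and 4.65 in 129 (1.74 ± 0.33, adjusted p = 0.047), and its difference at E17.5 was 2.93 (adjusted p = 0.0068). The ligand Nodal had a difference of 0.31 (adjusted p = 0.60), its antagonists Lefty1 and Lefty2 had 0.08 and 0.29, and the signal transducers Smad2 and Smad3 had 0.08 and -0.01. None of these 5 passed the test.

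Among 9 genes of DNA methylation, 1 was called, in the higher direction, against 0.15% of all genes. Dnmt3b, a de novo methyltransferase, read 10.49 and 10.33 in M19 and 9.24 and 9.50 in 129 (1.04 ± 0.16, adjusted p = 0.018). Its second probe set had a difference of 0.33 (adjusted p = 0.67). Dnmt3l, the cofactor that male germ cells need for de novo methylation, read 10.38 and 10.25 in M19 and 10.96 and 10.87 in 129 (-0.60 ± 0.12, adjusted p = 0.057). Dnmt3a and Dnmt1 had differences of 0.09 and 0.14.

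General germ cell genes did not pass the test. None of 14 was called, with a median of 0.01, and none of 15 piRNA pathway genes was called, with a median of 0.02. Ddx4, the germ cell helicase, had 12.45 and 12.40 in M19 and 12.09 and 12.40 in 129 (0.18 ± 0.20). Dazl and Sycp3 had differences of 0.51 and 0.73, with adjusted p-values of 0.24 and 0.28. In the piRNA list Piwil2 had 11.70 and 11.57 in M19 and 11.54 and 11.73 in 129. None of 11 proliferation genes and none of 8 cell cycle inhibitors was called, with medians of 0.05 and -0.03.

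Other genes among the largest differences higher in M19 are in none of the lists. Snrpd3, a core protein of the spliceosome, read 11.95 and 11.55 in M19 and 10.15 and 10.27 in 129 (1.54 ± 0.21, adjusted p = 0.0066), but its 2 dimmer probe sets had differences of -0.04 each. Liph, a phospholipase, read 9.58 and 9.42 in M19 and 8.35 and 8.57 in 129 (1.04 ± 0.14, adjusted p = 0.0063). Cpeb1, which controls the poly(A) tails of germ cell messages, read 9.20 and 8.95 in M19 and 7.90 and 8.3 in 129 (0.97 ± 0.17, adjusted p = 0.033). Pip5k1a, Marf1, Inppl1 and Pspc1 were higher by 0.98, 0.88, 0.84 and 0.82. Dimmer probe sets of Marf1 had differences of -0.01 and 0.23, and that of Pspc1 had 0.05. Those of Pip5k1a had 0.74, which was called, 0.25 and 0.21. Of the 27 higher genes, M19 at E15.5 was the highest of the 6 groups in 11, and 129 at E15.5 was the lowest in 13.

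The higher calls rest on few arrays. Without M19 replicate 1 of E15.5 the count of higher genes was 2, without M19 replicate 2 it was 4, without 129 replicate 1 it was 6 and without 129 replicate 2 it was 17. The pluripotency count was 1, 1, 2 and 6 in these fits. It was 7 without either 129 array of E13.5. Sox2 lost its call without M19 replicate 1 or M19 replicate 2 of E15.5, and Dppa3, L1td1, Dnmt3b and Liph without either of these or 129 replicate 1 of E15.5. Nanog lost it in these 3 fits and without either 129 array of E17.5. Tdgf1 and Cpeb1 each kept the call in 3 of the 12 fits, those without either 129 array of E13.5 and without 129 replicate 2 of E15.5. Of the 27 higher genes, the 2 that were called in all 12 fits that leave out an array were Otx2 and Dppa5a.

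Genes lower in M19 were more numerous and their differences were larger. Of the 97, 66 differed by 1 log2 unit or more and 20 by 2 or more, against 9 and 0 of the 27 higher genes. In 73 of the 97, 129 at E15.5 was the highest of the 6 groups, and in 40 M19 at E15.5 was the lowest. Of the 97, 36 were called in all 12 fits that leave out an array. The E15.5 difference was distinct from the mean of the other stages in 45 of them.

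Epidermis genes had the most calls of any list, 12 against 11 for skeletal muscle. The lists were chosen with earlier results of these data known. Of 23 epidermis genes measured, 12 were lower and none higher, and the median difference was -0.96. Over all genes 0.538% were called lower. Perp, a desmosome protein, read 6.06 and 5.88 in M19 and 9.87 and 10.18 in 129, which is 16.6-fold lower in M19 (-4.05 ± 0.23, adjusted p = 1.2e-05). Krt1, a keratin of differentiated skin layers, read 7.64 and 7.74 in M19 and 11.30 and 11.39 in 129 (-3.65 ± 0.13, adjusted p = 5.6e-07). Krt5, the keratin of the basal layer, read 7.76 and 7.85 in M19 and 10.74 and 10.73 in 129 (-2.93 ± 0.19, adjusted p = 2.9e-05). Keratins of both the basal and the differentiated layers were thus lower.

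The other called epidermis genes were Krtdap, Krt15, Dmkn, Krt10, Col17a1, Krt14, Sbsn, Dsp and Krt77, with differences between -3.30 and -0.96. Krt10, the partner of Krt1 whose promoter is printed above, had 9.57 and 9.21 in M19 and 11.74 and 11.76 in 129. In 10 of the 12 the E15.5 difference was distinct from the other stages. Trp63, the transcription factor of stratified epithelia, had a called probe set at 6.60 and 6.60 in M19 and 8.11 and 8.45 in 129 (-1.68, adjusted p = 0.00018), while its brightest probe set gave -0.14. Dsc3 and Dsc1, desmosome cadherins, likewise had a dimmer called probe set, lower by 2.45 and 2.41. With any probe set counted, 16 of the 23 genes had a lower call. Members without a call included Lgals7 at 0.02 and Ly6d at -0.18.

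Of 30 skeletal muscle genes 11 were lower and none higher, with a median of -0.43. Over all genes 0.538% were called lower. With any probe set counted, 13 of the 30 had a lower call. Actc1, the actin of developing and cardiac muscle, read 7.28 and 7.21 in M19 and 10.63 and 10.80 in 129 (-3.47 ± 0.13, adjusted p = 5.8e-07). Myh3, the embryonic myosin heavy chain, read 7.25 and 7.0 in M19 and 9.86 and 10.01 in 129 (-2.81 ± 0.17, adjusted p = 1.8e-05). Myog, the factor that drives muscle differentiation, was lower by 0.94 (adjusted p = 0.04), a call lost in 10 of the 12 fits with an array removed (adjusted p up to 0.34). Each of these 3 genes had M19 arrays below both 129 arrays.

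The other called muscle genes were the contractile genes Myl1, Mylpf, Myh8, Acta1, Tnnc2, Myl4, Tnnc1 and Tnni1, between -2.17 and -0.57. The dimmer Myl4 probe set had a difference of -0.10. Myod1, Myf6 and Pax7, factors of muscle precursors, had differences of -0.22, -0.01 and -0.24 and were not called. Of 7 smooth muscle genes of the peritubular cells, which surround the cords, none was called and the median was -0.15.

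Cartilage and tendon genes included some of the largest differences. Of 18 cartilage and bone genes 3 were lower and none higher (median -0.26), where 0.538% of all genes were called lower. With any probe set counted, 6 of the 18 had a lower call. Among them was Ibsp, with 1 of its 2 probe sets called and differences of -3.96 and -0.20. Col2a1, the main collagen of cartilage, read 7.84 and 7.73 in M19 and 10.42 and 10.42 in 129 (-2.63 ± 0.13, adjusted p = 4.9e-06). Acan and Matn4, cartilage matrix proteins, were lower by 1.08 and 1.05. Of 10 tendon genes 4 were lower and none higher (median -0.67). With any probe set counted, 5 of the 10 had a lower call, among them Fmod with 4 of its 6 probe sets. Kera, a proteoglycan of cornea and tendon, read 6.71 and 6.63 in M19 and 9.92 and 9.87 in 129 (-3.22 ± 0.14, adjusted p = 1.7e-06). Tnmd, a membrane protein of tendon, was lower by 2.70, Tnc by 1.12 and Thbs4 by 0.92. The dimmer Tnc probe set had a difference of -0.08.

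The counts in these groups move with single arrays. Leaving out an array gave 9 to 12 lower epidermis genes, 7 to 12 muscle genes, 1 to 5 cartilage and bone genes and 2 to 5 tendon genes. The lowest count was reached without M19 replicate 1 of E15.5 in epidermis, muscle and cartilage, and without 129 replicate 2 in tendon. Epidermis also had 9 without M19 replicate 2. The cartilage count was also 1 without M19 replicate 2, and it was 5 without either 129 array of E13.5. The tendon count was also 2 without M19 replicate 2. Among single genes, the calls of Dsp and Tnni1 were lost in 10 of the 12 fits, that of Acan in 9 and that of Krt77 in 8.

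**Figure D2:**
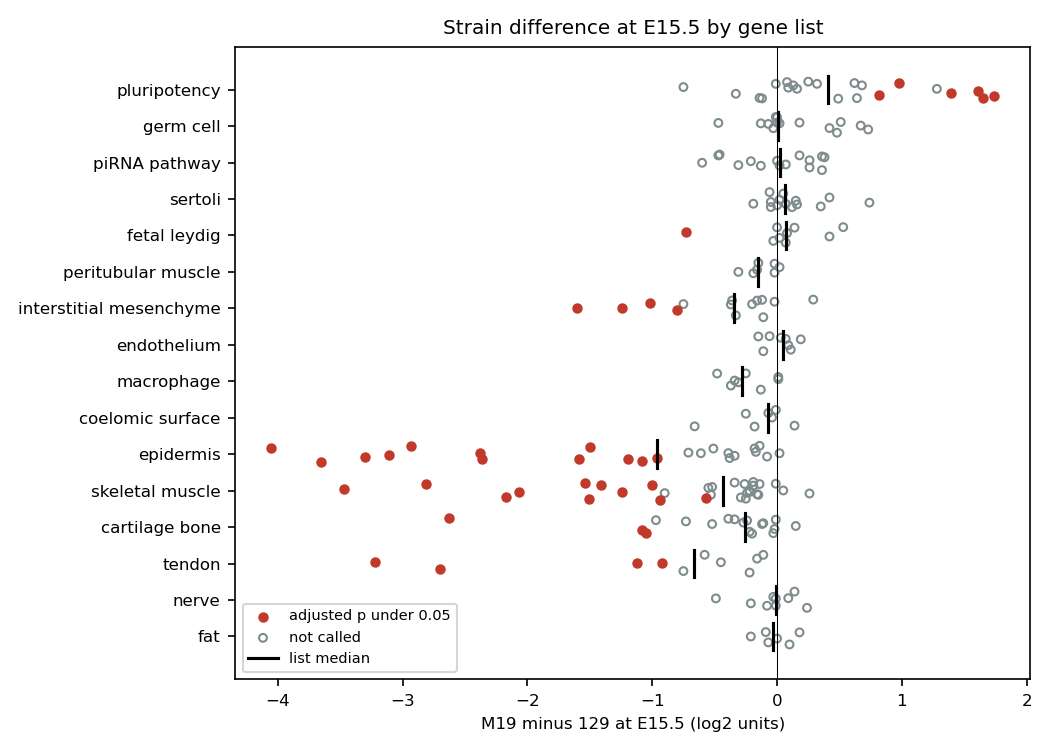
Difference M19 minus 129 at E15.5 in log2 units (horizontal axis) for each measured gene of 16 gene lists (rows). Filled points are genes with an adjusted p under 0.05, open points the others, and black bars list medians. Called genes lie at or above 0.8 in the pluripotency row, and down to -4.05 in the epidermis row.

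Some mesenchyme genes were also lower. Of 14 interstitial mesenchyme genes 4 were lower and none higher, the median was -0.35 and 13 differences were negative. Members without a call included Nr2f2, whose 6 probe sets had differences of 0.07 to 0.52. Probe sets of Tcf21 had -0.11 to 0.23 and those of Pdgfra -0.15 to 0.16. Postn, a matrix protein, read 10.35 and 10.04 in M19 and 11.72 and 11.87 in 129 (-1.60 ± 0.14, adjusted p = 0.00022). Dpt, a dermal matrix protein, was lower by 1.24, Twist2, a factor of dermal mesenchyme, by 1.02, and Col1a1, the main fibrillar collagen of skin and bone, by 0.80. The count was 2 without M19 replicate 1, without M19 replicate 2 and without 129 replicate 2 of E15.5. Dimmer probe sets of Prrx1, a factor of limb mesenchyme, were lower too, by up to 2.04. The dimmer Col1a1 probe set had a difference of -0.17 and was not called.

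Hoxd13, which patterns the digits and the genital tubercle, read 6.65 and 6.76 in M19 and 8.91 and 9.25 in 129 (-2.37 ± 0.13, adjusted p = 7.8e-06). In every other group its mean lay between 6.54 and 6.88. Hoxa10, which patterns the hindlimb and the reproductive tract, read 6.83 and 6.53 in M19 and 8.48 and 9.41 in 129 (-2.27 ± 0.35, adjusted p = 0.017). A second, dimmer Hoxa10 probe set had a difference of 0.10 (adjusted p = 0.96). The course of the brightest one was unlike that of Hoxd13, since its means at E13.5 were 9.11 in M19 and 8.98 in 129, and at E17.5 they were 5.75 in M19 and 6.05 in 129. Its call was lost without M19 replicate 1, without M19 replicate 2 and without 129 replicate 2 of E15.5 (adjusted p = 0.13 to 0.20).

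The 97 lower genes thus had different courses over the stages. For the 29 in the epidermis, muscle, cartilage and tendon lists that lie off chromosome 19, the median strain difference was -0.08 at E13.5, -1.54 at E15.5 and 0.02 at E17.5, and in 28 of them 129 at E15.5 was the highest group. For the 53 other lower genes off chromosome 19 the medians were -0.04, -1.07 and -0.04, and 129 at E15.5 was highest in 42. In 14 of these 53 the 129 mean at E13.5 lay at least 0.5 above that at E17.5, and in 12 of the 14 the M19 mean at E15.5 was at least 0.5 below that at E13.5. Egfl6 and Agtr2, chosen after their values were seen, show this course. Egfl6, a secreted epidermal growth factor-like protein, had means of 9.26 in M19 and 9.33 in 129 at E13.5, 7.73 in M19 and 9.67 in 129 at E15.5, and 7.68 in M19 and 7.82 in 129 at E17.5. Agtr2, an angiotensin receptor of fetal mesenchyme, had 11.61 in M19 and 11.65 in 129 at E13.5, 8.96 in M19 and 10.32 in 129 at E15.5, and 9.57 in M19 and 9.76 in 129 at E17.5.

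**Figure D3:**
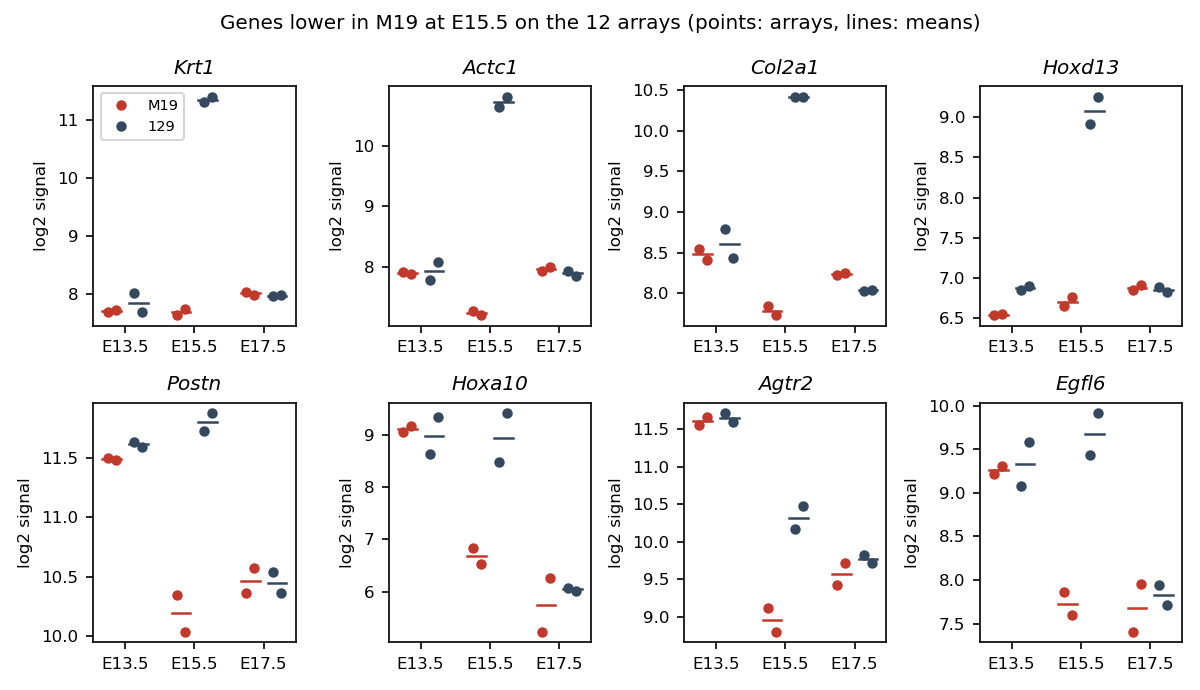
Log2 signal (vertical axis) of 8 genes lower in M19 at E15.5 on all 12 arrays, by stage (horizontal axis), with M19 left of 129. Points are arrays and lines are group means. Krt1, Actc1, Col2a1 and Hoxd13 are high in 129 at E15.5 and low in the 5 other groups, and Hoxa10, Agtr2 and Egfl6 are high in both strains at E13.5.

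In the lists that follow, at most 1 gene each was called by its brightest probe set, against 4 of 14 in the interstitial mesenchyme list. Over all genes 0.538% were called lower. None of 14 Sertoli cell genes was called (median 0.06). Amh, the hormone that makes the female ducts regress, had 11.30 and 11.85 in M19 and 11.64 and 11.61 in 129. Of 9 fetal Leydig cell genes 1 was lower, Inhba, an activin subunit, at 10.16 and 10.08 in M19 and 10.83 and 10.87 in 129 (-0.73 ± 0.12, adjusted p = 0.023), a call lost without any 1 of the 4 arrays of E15.5. The dimmer Inhba probe set had a difference of 0.00. The steroid enzymes Cyp17a1 and Cyp11a1 had differences of 0.00 and 0.08. Of 7 mesonephros and duct genes 1 was lower, Gata3, a factor of the nephric duct (-0.99 ± 0.17, adjusted p = 0.025). The Gata3 call was lost in 7 of the 12 fits with an array removed, with adjusted p-values up to 0.27, and with quantile normalization, median centring and the E15.5 arrays alone. None of 8 endothelium, 8 macrophage, 7 coelomic surface, 6 red cell, 6 fat, 6 female gonad and 9 nerve genes was called by its brightest probe set, and a dimmer probe set of Nefl, a nerve gene, was lower by 1.00.

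Chromosome 19 is the one that differs in origin between the strains. Of its 609 measured genes 19 were called at E15.5, or 3.12%, against 105 of 17423 genes elsewhere, or 0.603%. Of the 19, 15 were lower and 4 higher, and 18 had the same sign at all 3 stages, the exception being Ahnak. At E13.5 3 of them were also called and at E17.5 7. Sf1, Anxa1, Col17a1, Mbl2 and Aldh1a7 were the 5 called in all 12 fits that leave out an array. The chromosome 19 count in these fits ran between 6 and 25. It was 7 without M19 replicate 1, 6 without M19 replicate 2 and 10 without 129 replicate 2 of E15.5, and 12 without either M19 array of E13.5 or either 129 array of E17.5. The share on chromosome 19 was 1.15% against 0.212% elsewhere without M19 replicate 1 of E15.5, and 0.985% against 0.224% without M19 replicate 2. The medians of the 15 lower genes were -0.67 at E13.5, -1.04 at E15.5 and -0.80 at E17.5.

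Sf1, a splicing factor that recognises the branch point (chr19:6363673-6378038), is one of the genes that the series text names, by older symbols, as lower in M19. It read 11.55 and 11.65 in M19 and 13.44 and 13.70 in 129 at E15.5, 3.92-fold lower (-1.97 ± 0.17, adjusted p = 0.00022). The difference was -1.94 at E13.5 and -2.06 at E17.5, and the E15.5 difference lay within its error of the mean of the others (0.03 ± 0.21). Its 4 other probe sets had differences of -1.07, which was called, and -0.38, -0.21 and -0.11, which were not. The probe sets of this gene therefore disagreed in size. Whether the MOLF sequence differs under some probes, of this or of other chromosome 19 genes, was not tested.

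Of the other genes that the series text names, Cox15, which acts in the assembly of cytochrome oxidase, read 9.61 and 9.41 in M19 and 9.38 and 9.79 in 129 by its brightest probe set (-0.08 ± 0.19, adjusted p = 0.99). Its 4 probe sets had differences of -1.22 to 0.06, and none was called. Pum3, an RNA-binding protein of the nucleolus, read 10.06 and 9.95 in M19 and 9.93 and 9.92 in 129 by its brightest probe set (0.08 ± 0.11, adjusted p = 0.96). A second Pum3 probe set was called lower, at 9.11 and 9.06 in M19 and 10.62 and 10.62 in 129 (-1.54 ± 0.11, adjusted p = 6.1e-05). Of 3 Pum3 probe sets, 1 was thus called lower and none higher.

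Anxa1, Col17a1 and Mbl2 were the 3 chromosome 19 genes whose E15.5 difference was distinct from the other stages. Anxa1, a phospholipid-binding protein of many epithelia (chr19:20373434-20390671), read 8.82 and 8.59 in M19 and 10.54 and 10.76 in 129 (-1.94 ± 0.13, adjusted p = 4.5e-05), with -0.19 at E13.5 and -0.87 at E17.5. Its dimmer probe set had a difference of -0.05. Col17a1, a collagen of the hemidesmosome (chr19:47646341-47692042), is also a member of the epidermis list, and read 6.36 and 6.42 in M19 and 7.85 and 8.11 in 129. Mbl2, a mannose-binding lectin, read 6.32 and 6.29 in M19 and 7.77 and 7.76 in 129. The arrays of the strains were separate in all 3.

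The lower genes Slc18a2 (a vesicular monoamine transporter), Lipo3 (a lipase), Aldh1a7 (an aldehyde dehydrogenase) and Kazald1 had differences of -1.85, -1.32, -1.22 and -0.90, and were called at E17.5 as well. Cyp2c55, Stn1, Dmrt2, Plaat3, Ahnak, Fads2 and Ifit2 were lower by 0.62 to 1.04. The other probe sets of Ahnak had differences of 0.20, 0.24 and 0.53, and those of Stn1 had -0.07 and -0.04. Those of Fads2 had -0.70 and -0.46, and that of Plaat3 had -0.65, which was called lower. The genes higher in M19 were Pyroxd2 (1.00 ± 0.12, adjusted p = 0.0026), Tmem258 (0.90), Gldc (0.81) and Dusp5 (0.81). Dimmer probe sets of Pyroxd2 had differences of 0.47 and 0.10, and that of Tmem258 had -0.22. Gldc, the glycine decarboxylase, read 9.97 and 9.88 in M19 and 9.01 and 9.21 in 129. Its mean in M19 was 9.97 at E13.5 and 8.36 at E17.5.

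**Figure D4:**
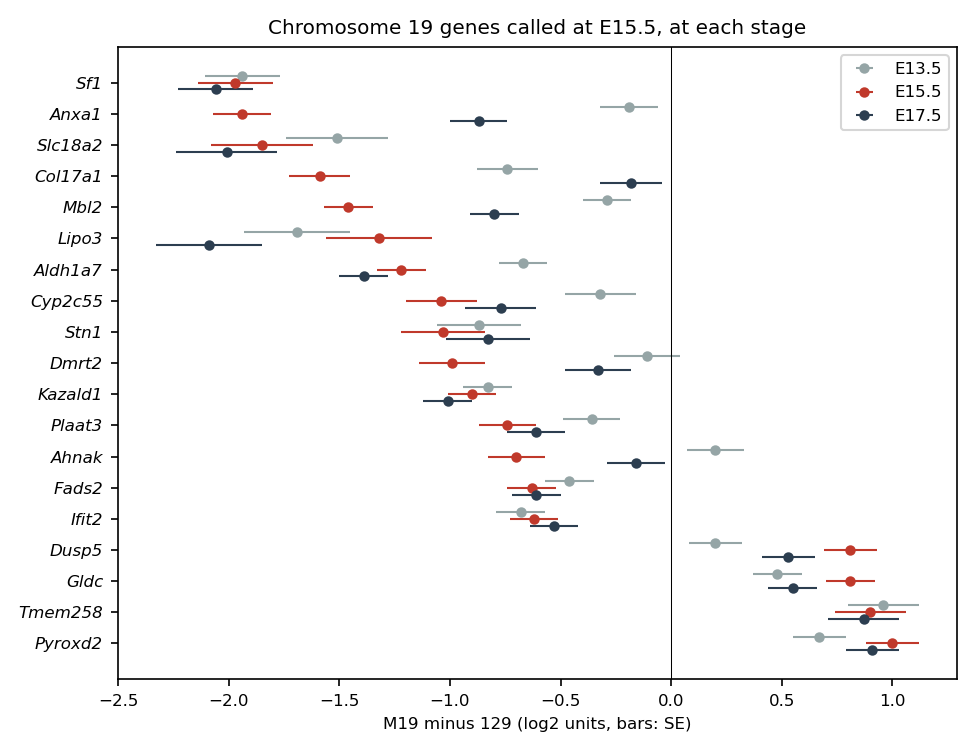
Difference M19 minus 129 in log2 units (horizontal axis) at E13.5, E15.5 and E17.5 for the 19 genes of chromosome 19 called at E15.5 (rows). Points are differences and bars are SEs. Sf1 lies near -2 at every stage, while Anxa1 is at -0.19, -1.94 and -0.87 by stage.

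Other probe sets of the called genes mostly had the same sign but smaller differences. The lower genes had 68 other probe sets in 35 genes, of which 59 had the same sign and 18 were called lower. Their median difference was -0.34, against -1.22 for the brightest probe sets of the 97 lower genes. The higher genes had 17 in 11 genes, of which 13 had the same sign and 1 was called higher. The median of these was 0.23, against 0.90 for the brightest probe sets of the 27 higher genes. None of the other probe sets was called in the opposite direction.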

How the data were processed

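RNA of pooled male genital ridges was measured on 12 Affymetrix whole-genome mouse arrays, 2 for each strain and stage. The authors deposited a single value per probe set and array, for 45101 probe sets. The summary method, background correction, normalization and log base are not given in the sources used here, and the deposited values were taken as log2 signal from their range. Array medians on this scale lay between 8.10 and 8.27. Arrays have no read depth, and their number limits the precision.

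The 64 control probe sets were left out. GEO's platform annotation gave 1 gene for 34945 of 45037 probe sets, several for 932 and none for 9160. Through RefSeq (GRCm38.p6) 34741 probe sets matched 18032 genes, each represented by its brightest probe set on average over all arrays. limma 3.58.1 (R 4.3.3) fitted 6 group means without a replicate block, with eBayes and two-sided tests. A further contrast set the E15.5 strain difference against the mean of those at E13.5 and E17.5. All adjustments ran over the 45037 probe sets. The procedure was also run on simulated data with independent noise in each probe set and array. Shared pools and mixed tissue were not simulated. Promoters came from RefSeq (GRCm38.p6). Python 3.11.15, pandas 2.3.3 and matplotlib 3.10.9 made the summaries and plots.

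The genes named are up to 15 higher and 15 lower called genes with the largest difference, no overlap between strains and a mean in the higher strain over 8.17, which is the median over probe sets of their means. To these come the called genes of chromosome 19, the called list members with uncalled examples, and Sf1, Pum3 and Cox15. Egfl6 and Agtr2 were added outside this rule, after their values were seen. The members and lists were chosen with earlier results of these data known. The alternatives were another normalization, scaling, filter, variance model, replicate block, subset of arrays and gene summary.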

Additional observations from a re-analysis of the deposited data

Results flagged for a closer look

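For 29 of the genes named by the rule above, the E15.5 strain difference differed from the mean of those at E13.5 and E17.5. The test was a contrast in limma with an adjusted p under 0.05. Values are log2 differences, E15.5 minus the mean of the other stages, each of M19 minus 129.

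The gene with a positive value was Dppa5a, at 1.41. Among epidermis genes the values were -4.06 for Perp, -3.60 for Krt1, -3.29 for Krtdap, -3.13 for Krt15, -2.91 for Krt5, -2.44 for Krt10, -2.39 for Dmkn, -1.48 for Krt14, -1.14 for Sbsn and -1.13 for Col17a1. Among muscle genes they were -3.50 for Actc1, -2.76 for Myh3, -2.15 for Myl1, -2.05 for Mylpf, -1.69 for Myh8, -1.57 for Acta1, -1.37 for Tnnc2 and -1.16 for Myl4.

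Among cartilage genes the values were -2.67 for Col2a1 and -1.10 for Matn4, and among tendon genes -3.11 for Kera and -2.52 for Tnmd. Mesenchyme genes had -1.55 for Postn, -1.0 for Twist2 and -0.98 for Dpt. Hoxd13 had -2.22, and of the genes on chromosome 19 Anxa1 had -1.42 and Mbl2 -0.91. Egfl6 and Agtr2, named outside the rule, had -1.83 and -1.24 (limma contrast, adjusted p = 0.028 and 0.031).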

How the results depend on the processing

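None of the 71 genes named by the rule and called at E15.5 changed sign under the alternatives run. Cox15, which was not called, had -0.08 as reported, and 0.13 without 129 replicate 2 and 0.02 without M19 replicate 2 of E15.5. Of the values of these 71 genes, 457 kept the call and 53, in 22 genes, lost the call under alternatives other than leaving out an array. When each array was left out in turn, 624 kept it and 228, in 44 genes, lost it. The called probe sets were 258 as reported and 84 to 351 with an array left out. They were 6 to 88 for the higher and 74 to 263 for the lower, and by gene 44 to 172, with 2 to 41 higher and 41 to 131 lower. For the contrast against the other stages, 91 were called as reported and 41 to 124 with an array left out, with 1 to 17 higher and 37 to 112 lower. The filter on dim probe sets gave 150 calls, 109 of them lower, and for the contrast 36, of which 30 lower. The 4 arrays of E15.5 alone gave 34 higher calls, and the mean over all probe sets of a gene gave 187 called genes, 42 of them higher. Without the probe sets of skin, muscle, cartilage and tendon genes the contrast gave 33 calls, 3 higher and 30 lower. In the same fit the higher calls of the E15.5 difference were 42, against 54 as reported. No gene of these lists had a probe set called higher at E15.5. For the contrast, the higher calls were 5 with median centring and 18 with an intensity trend and robust prior, against 8 as reported. The cause of these changes was not tested. Tdgf1 lost its call with quantile normalization (adjusted p = 0.068), median centring (adjusted p = 0.06) and without the probe sets of skin, muscle, cartilage and tendon genes (adjusted p = 0.057). The fit without the E13.5 arrays, chosen after seeing the data, gave 233 calls. With the replicate block there were 276 calls and 99 for the contrast. Deviations of arrays with the same number correlated at 0.249, -0.347 and -0.215 by stage. Each value rests on a single replicate difference per strain, so it cannot settle whether the numbers pair the samples.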
